A study of Mus musculus with 6 samples.

Results

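The Hox genes are described here: the 39 genes whose name is Hox, a cluster letter a to d and a position number, out of 45527 named genes in the count table. All 39 were present, 11 in the Hoxa cluster, 10 in Hoxb, 9 in Hoxc and 9 in Hoxd. Messenger RNA was measured by sequencing in satellite cells, the stem cells of skeletal muscle, sorted by yellow fluorescence 24 h after 30 µl of cardiotoxin, a toxin that kills muscle fibres, had been given into the lower hindlimb muscles of mice. The 3 libraries labelled Paxbp1-iKO came from mice of genotype Pax7creER:Paxbp1flox/flox:R26R-YFP, and the 3 control libraries from Pax7creER:Paxbp1flox/+:R26R-YFP mice. Both groups thus carry an inducible Cre driven from Pax7, the fluorescent reporter and at least 1 floxed Paxbp1 allele, and both were injured. The series' design speaks of 3 pairs of mice, but the labels give no age, sex or strain and do not say which animal gave which library. The p-values therefore rest on the spread between libraries, part of which may be technical.

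Hox proteins are homeodomain transcription factors that give cells along the body axis and along the limb their regional identity. Genes of a cluster are activated in the order of their place, so that low numbers mark anterior and high numbers posterior or distal regions, and the same number in different clusters marks paralogues. In the embryonic limb, posterior Hoxa and Hoxd genes pattern the limb segments, while Hoxc genes of positions 9 to 11 are known from the hindlimb and not the forelimb. Satellite cells of adult muscle keep a Hox pattern that follows the muscle they come from. Hoxa9 is in addition known in mice as a gene that aged satellite cells induce after injury, with an MLL histone methyltransferase complex acting at its locus. Paxbp1 is known in the mouse as an adaptor between Pax3 or Pax7 and an H3K4 methyltransferase complex.

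Library totals ran from 23327359 to 28050748 counts. Paxbp1 had 2745, 3162 and 3125 counts in iKO libraries 1 to 3, against 1583, 1917 and 1592 in controls 1 to 3, a log2 fold change of 0.68 ± 0.13 (SE; edgeR adjusted p = 0.00954). The targeted gene was thus higher in the group labelled a knockout. Counts cover the gene as a whole, and the sources used here do not say which exons are floxed, so a deletion cannot be read from them. "iKO-labelled" stands below for the libraries labelled Paxbp1-iKO, and all directions rest on the labels. Across tested genes, log2 CPM (counts scaled to library size by TMM) correlated at 0.933 to 0.957 for libraries of the same group and at 0.902 to 0.924 across groups. Fewer cells of a type and less RNA per cell cannot be told apart in such bulk samples.

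The libraries of sorted hindlimb satellite cells held messenger RNA of the Hoxa and Hoxc clusters, little of Hoxd and almost none of Hoxb. All Hox genes together summed to 63.5 to 90.8 CPM per library. Markers of other cell types, given below, were present too, and which cells the Hox RNA came from was not tested. The Hoxa cluster (chromosome 6, 52155590 to 52260880 in GRCm38, minus strand) held 6272 counts over the 6 libraries and the Hoxc cluster (chromosome 15, 102921103 to 103036852, plus strand) 4898. The Hoxd cluster (chromosome 2, 74668310 to 74765142, plus strand) held 575 counts, and the Hoxb cluster (chromosome 11, 96194316 to 96368256, plus strand) 73. Of the 39 genes, 18 passed the filter on low counts and could be tested: 8 of 11 in Hoxa, 0 of 10 in Hoxb, 8 of 9 in Hoxc and 2 of 9 in Hoxd. Measured per length, 6 genes reached 1 FPKM (fragments scaled to exon length and library size) in every library: Hoxc9, Hoxa10, Hoxc10, Hoxc11, Hoxa7 and Hoxc6.

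**Figure D1:**
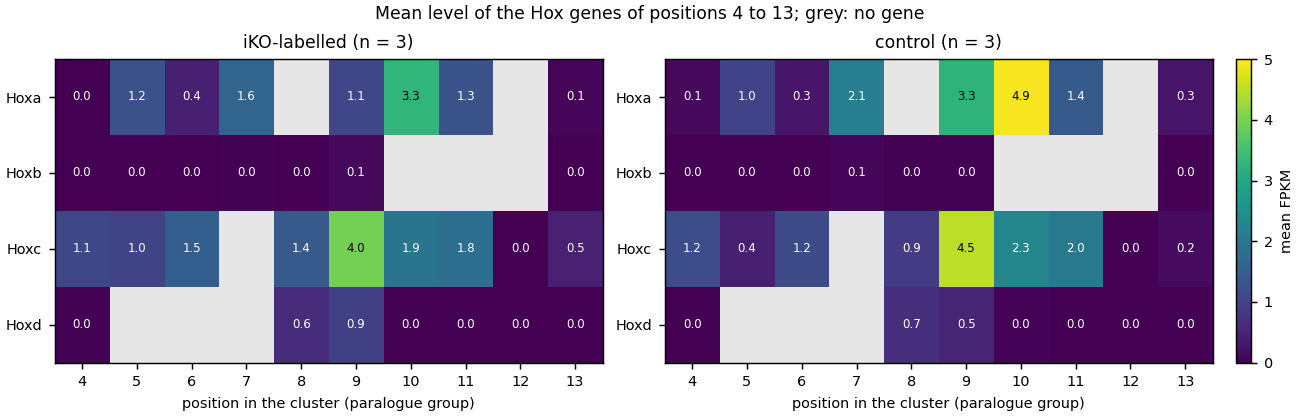
Mean FPKM of each Hox gene of positions 4 to 13 (colour and number, n = 3 libraries per panel) by cluster (rows) and position in the cluster (columns), in iKO-labelled libraries (left) and controls (right); grey cells hold no gene. Means above 0.5 FPKM in either panel lie in Hoxa5, Hoxa7, Hoxa9, Hoxa10, Hoxa11, Hoxc 4 to 11 and Hoxd 8 and 9. Hoxa6 and Hoxc13 are lower, at 0.44 and 0.46 FPKM in the iKO-labelled panel, and the Hoxb row is near 0 in both panels.

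Posterior genes made up most of the signal. Genes of positions 9 to 13 took 62.7%, 64.9% and 58.0% of the summed Hox FPKM in iKO libraries 1 to 3, against 67.3%, 67.5% and 72.7% in controls 1 to 3. Those of positions 4 to 8 took 37.1%, 35.0% and 40.2% in iKO libraries 1 to 3, against 31.9%, 27.9% and 26.8% in controls 1 to 3. These shares depend on each other within a library, and positions 9 to 13 include Hoxa9, which was called lower (below). No gene of positions 4 to 8 was called. The anterior genes of positions 1 to 3 made up at most 4.55% in any library, and of these 8 genes Hoxa3 alone passed the filter.

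The highest levels per length were those of Hoxc9 and Hoxa10. Hoxc9 stood at 3.96 ± 0.480 FPKM in iKO-labelled libraries and 4.51 ± 0.680 FPKM in controls (SD, n = 3 each, as for all means below). Hoxa10 stood at 3.29 ± 0.112 FPKM in iKO-labelled libraries and 4.94 ± 1.20 FPKM in controls. In the controls, Hoxa9 followed at 3.26 ± 0.162 FPKM. Below it came Hoxc10 at 2.27 ± 0.475, Hoxa7 at 2.15 ± 0.417 and Hoxc11 at 2.02 ± 0.0106 FPKM, whose ranges of mean ± SD overlapped. In iKO-labelled libraries the order below Hoxa10 was Hoxc10 at 1.93 ± 0.538, Hoxc11 at 1.83 ± 0.547, Hoxa7 at 1.62 ± 0.369 and Hoxc6 at 1.5 ± 0.312 FPKM. Their ranges of mean ± SD overlapped too. The deposited FPKM of Hoxa7 rest on a length 1.31 times its exon length in GENCODE M21, relative to the other Hox genes, so its place in the order depends on the annotation; counts per annotated exon length, averaged over the 6 libraries, put it at rank 3, above Hoxa9.

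Levels were low at the posterior end of both active clusters. The Hoxa11 level was 1.29 ± 0.663 FPKM in iKO-labelled libraries and 1.42 ± 0.787 FPKM in controls. Hoxa13, a gene of the autopod (hand and foot), had 1, 17 and 1 counts in iKO libraries 1 to 3, against 0, 25 and 29 in controls 1 to 3. Hoxc13 had 37, 23 and 34 counts in iKO libraries 1 to 3, against 3, 26 and 1 in controls 1 to 3. Hoxc12 and Hoxb13 had 0 counts in all 6 libraries. By counting error alone, a count of 0 allows up to 3 counts, which correspond to 0.102 to 0.134 CPM per library. In Hoxd, the genes of positions 10 to 13, which pattern the distal limb, held 12 counts in all, whereas Hoxd9 held 251 and Hoxd8 291.

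The Hoxb genes were close to absent at this depth. Of their 73 counts, 34 were those of Hoxb9, and 29 of these 34 lay in iKO library 2. Hoxb7 had 10 of its 13 counts in control 1. No other Hoxb gene exceeded 7 counts over the 6 libraries. Such concentration in single libraries was also seen in anterior Hoxa genes: Hoxa2 had 41 counts in control 2 and 0 elsewhere, and Hoxa4 had 16 of 19 counts in control 3. In all, 21 Hox genes failed the filter, with 200 counts between them, and 16 of these had at most 10 counts over the 6 libraries.

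The comparison of iKO-labelled and control libraries asked which of these genes differ when both Paxbp1 alleles are floxed. Hoxa9 was lower in iKO-labelled libraries. Its neighbour Hoxa10 had a negative fold change that did not pass the test, and no Hoxc gene passed. Of the 18 tested Hox genes, edgeR's quasi-likelihood test called 1 lower (Hoxa9) and 0 higher. Over all 16252 tested genes, 12.3% were called lower and 8.15% higher, so 1 of 18 is not more than the background. Most Hox genes are weakly expressed, however: among the 8322 tested genes with a mean between 0.333 and 13.7 CPM, the range of the tested Hox genes, 3.7% were called lower. At an unadjusted p under 0.05 there were 2 Hox genes, Hoxa9 and Hoxa10, both with negative fold changes; DESeq2 and limma-voom also called 1 lower and 0 higher. The median log2 fold change of the 18 was -0.15, beside 0.02 over all tested genes, with 11 negative and 7 positive.

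Hoxa9 (ENSMUSG00000038227.15, chromosome 6, 52223100 to 52231089, minus strand, 4 exon blocks in GENCODE M21) had 125, 233 and 140 counts in iKO libraries 1 to 3, against 402, 478 and 508 in controls 1 to 3. Scaled to library size, this was 4.38, 7.94 and 5.68 CPM in iKO libraries 1 to 3, against 17.97, 18.5 and 19.5 CPM in controls 1 to 3. The highest iKO-labelled library lay below every control by a wide margin, and the controls were close together. The log2 fold change was -1.63 ± 0.26 (SE; edgeR adjusted p = 0.00399), a level 0.322 times that of the controls, with a 95% interval of -2.23 to -1.04. The call was kept in all 17 alternative settings, with adjusted p from 8.65e-08 to 0.0227. With each library left out the log2 fold change ran from -1.89 to -1.45, and on the log2(FPKM + 1) scale, which understates changes of low genes, the difference was -1.06.

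**Figure D2:**
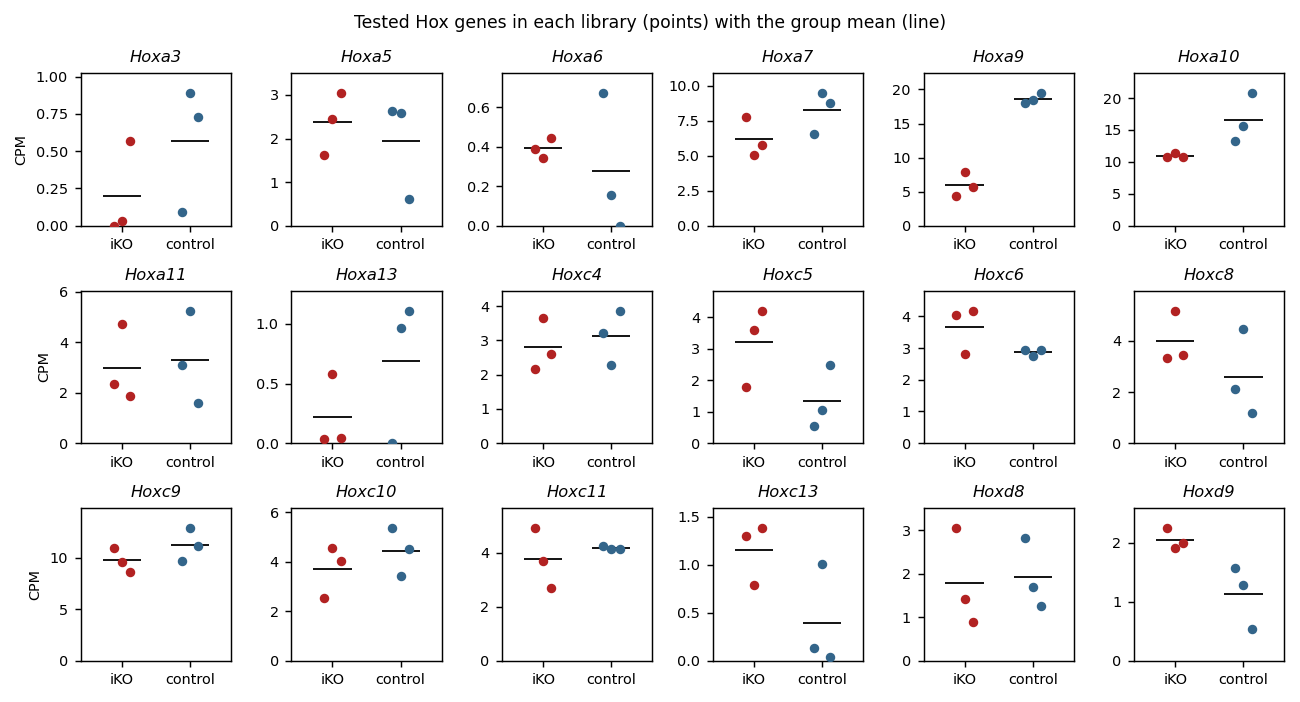
CPM of the 18 tested Hox genes in each library (points; iKO-labelled left, control right) with the group mean (line); each panel has its own linear axis from 0. For Hoxa9 the 3 iKO-labelled libraries sit between 4.38 and 7.94 CPM and the controls between 17.97 and 19.5 CPM.

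The sequence before and at the start of Hoxa9 in RefSeq is shown beside the starts of its upstream neighbour Hoxa10, the other Hox gene below an unadjusted p of 0.05. Each run is 250 bases before to 50 bases after a start site (GRCm38.p6, minus strand, read 5′ to 3′), with CpG dinucleotides in capitals because the MLL methyltransferases known to act on Hox genes bind unmethylated CpG. The 3 windows are chr6:52227321-52227620 for Hoxa9, chr6:52240805-52241104 for the outer Hoxa10 start and chr6:52234890-52235189 for the inner one.
Hoxa9: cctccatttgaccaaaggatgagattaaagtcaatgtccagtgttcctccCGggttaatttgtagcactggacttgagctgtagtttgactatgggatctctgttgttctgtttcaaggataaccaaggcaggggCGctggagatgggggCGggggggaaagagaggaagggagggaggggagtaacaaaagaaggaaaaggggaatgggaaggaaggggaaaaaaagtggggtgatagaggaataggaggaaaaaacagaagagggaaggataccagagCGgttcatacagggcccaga
Hoxa10, outer start: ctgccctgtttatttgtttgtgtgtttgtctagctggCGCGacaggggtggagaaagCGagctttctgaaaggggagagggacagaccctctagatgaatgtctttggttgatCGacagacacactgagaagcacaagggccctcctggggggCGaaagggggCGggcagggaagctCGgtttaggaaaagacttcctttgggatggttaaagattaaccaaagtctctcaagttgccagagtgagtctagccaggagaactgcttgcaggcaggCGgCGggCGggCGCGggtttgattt
Hoxa10, inner start: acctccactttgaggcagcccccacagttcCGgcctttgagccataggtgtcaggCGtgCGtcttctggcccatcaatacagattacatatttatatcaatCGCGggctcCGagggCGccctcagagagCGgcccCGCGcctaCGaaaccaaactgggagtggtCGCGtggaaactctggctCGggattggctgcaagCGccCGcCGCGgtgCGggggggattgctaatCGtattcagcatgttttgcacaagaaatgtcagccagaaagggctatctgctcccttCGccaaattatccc
The Hoxa9 window held 4 CpG and 49.7% G and C, and the Hoxa10 windows held 12 and 21 CpG. The median was 7 CpG over 32851 RefSeq promoters of this length and 14.5 over the 24 windows of the 22 Hox genes that matched the table, among which 4 was the lowest count. The letters TAAT and ATTA with 2 or 3 bases between them, to which paired-type homeodomains such as that of Pax7 bind as dimers, were searched on both strands. With 2 bases between they occurred in 0.39% of all promoters and with 3 in 0.487%, and in 0 of the 24 Hox windows either way. Binding and methylation were not measured, so these letters describe the windows and no more. The annotated gene in GENCODE reaches further upstream than this RefSeq start.

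Counts of Hoxa9 could in principle take reads of its paralogues. The longest exact run that any Hoxa9 transcript shared with a Hox transcript of another cluster was 31 bases long. The run shared with Hoxc9, of that length, is shown because reads that lie wholly within it cannot be assigned to 1 of the genes.
Hoxa9 and Hoxc9: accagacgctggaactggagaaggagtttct
The longest such run between any Hox genes of different clusters was 58 bases, between Hoxb6 and Hoxc9. Within the annotation, 1.52% of the exon bases of Hoxa9 were overlapped, by the microRNA gene Mir196b on the same strand, and 0% of those of Hoxa10. Neither read length nor strand setting is stated in the sources used here.

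Hoxa10, whose product works beside Hoxa9 in limb and axial patterning, had 305, 333 and 264 counts in iKO libraries 1 to 3, against 295, 405 and 542 in controls 1 to 3. In CPM these were 10.7, 11.4 and 10.7 in iKO libraries 1 to 3, against 13.2, 15.7 and 20.8 in controls 1 to 3, so that the groups did not overlap. The log2 fold change was -0.60 ± 0.22 (95% interval -1.11 to -0.09), with an edgeR adjusted p of 0.098, which misses the threshold. It missed it in all 17 alternatives too (adjusted p 0.0682 to 0.306), and the value without control 3 was -0.39. Groups without overlap were found for 3 of the 18 tested Hox genes, Hoxa9, Hoxa10 and Hoxd9, and for 39.8% of all tested genes.

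Within single libraries Hoxa9 was lower relative to 3 other Hox genes. These ratios reuse the Hoxa9 counts of the test, so they describe the difference and are no further support for the call. There were 0.410, 0.700 and 0.530 Hoxa9 counts per Hoxa10 count in iKO libraries 1 to 3, against 1.36, 1.18 and 0.937 in controls 1 to 3. Relative to its paralogue Hoxc9 the ratio of counts was 0.399, 0.826 and 0.657 in iKO libraries 1 to 3, against 1.86, 1.44 and 1.75 in controls 1 to 3. Relative to Hoxa7, its downstream neighbour, it was 0.566, 1.57 and 0.986 in iKO libraries 1 to 3, against 2.75, 1.95 and 2.22 in controls 1 to 3. In none of the 3 ratios did the groups overlap; a two-sided exact permutation test gave p = 0.1 for each, also after adjustment over the 3, the smallest value that 3 libraries against 3 can give.

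Among the paralogues of group 9 the make-up differed accordingly. Hoxa9 gave 12.4%, 21.4% and 18.5% of the group's summed FPKM in iKO libraries 1 to 3, against 40.2%, 36.0% and 42.0% in controls 1 to 3. The share of Hoxc9 was 71.1%, 59.4% and 64.6% in iKO libraries 1 to 3, against 49.6%, 57.5% and 55.0% in controls 1 to 3. That of Hoxd9 was 16.5%, 13.4% and 16.9% in iKO libraries 1 to 3, against 9.14%, 6.49% and 3.02% in controls 1 to 3. Shares within a library depend on each other and reuse the Hoxa9 values, so they only describe the difference. Summed over group 9, FPKM were 6.09 ± 0.592 in iKO-labelled libraries and 8.31 ± 0.658 in controls. Hoxc9 itself did not pass the test (log2 fold change -0.20 ± 0.22, 95% interval -0.72 to 0.31, edgeR adjusted p = 0.595), an interval that leaves out a change as large as that of Hoxa9.

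**Figure D3:**
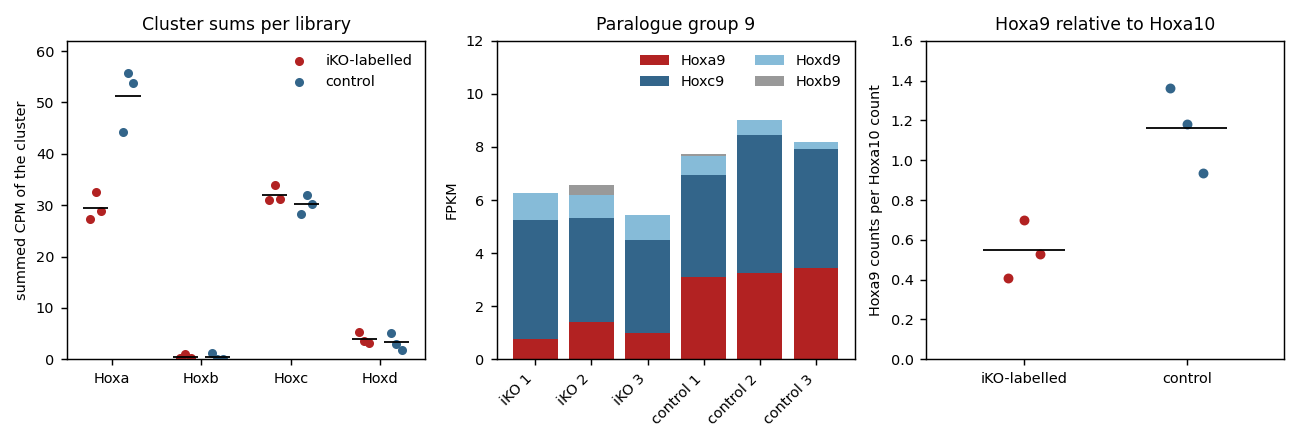
Left, summed CPM of each Hox cluster per library (points) with group means (lines); middle, FPKM of the paralogues Hoxa9, Hoxc9, Hoxd9 and Hoxb9 stacked for each library; right, Hoxa9 counts per Hoxa10 count. Hoxa sums are 27.2 to 32.5 CPM in iKO-labelled libraries and 44.2 to 55.7 CPM in controls, while the Hoxc sums of the groups overlap.

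Summed by cluster, Hoxa stood at 29.5 ± 2.69 CPM in iKO-labelled libraries and 51.2 ± 6.13 CPM in controls. Without Hoxa9, the other Hoxa genes summed to 22.9, 24.5 and 23.2 CPM in iKO libraries 1 to 3, against 26.2, 37.2 and 34.2 CPM in controls 1 to 3. Most of this difference lay in Hoxa10, at 10.9 ± 0.378 CPM in iKO-labelled libraries and 16.5 ± 3.86 CPM in controls. None of these other Hoxa genes was called, and their fold changes went in both directions. Hoxc stood at 32.04 ± 1.599 CPM in iKO-labelled libraries and 30.2 ± 1.88 CPM in controls. Hoxd stood at 4.04 ± 1.18 CPM in iKO-labelled libraries and 3.30 ± 1.67 CPM in controls. The Hoxa sum per Hoxc sum did not overlap between groups, with 0.877, 0.959 and 0.925 in iKO libraries 1 to 3, against 1.57, 1.74 and 1.77 in controls 1 to 3. These sums and their ratio are given as values, with no test.

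The remaining Hoxa genes did not pass the test. Hoxa7, of the thoracic region, stood at 6.18 ± 1.4 CPM in iKO-labelled libraries and 8.26 ± 1.54 CPM in controls (log2 fold change -0.42 ± 0.28), and 20.4% of its exon bases overlap the antisense gene Hoxaas3. Hoxa5 stood at 2.37 ± 0.718 CPM in iKO-labelled libraries and 1.95 ± 1.16 CPM in controls (0.28 ± 0.63). Hoxa11, which patterns the zeugopod (forearm and shank), stood at 2.98 ± 1.54 CPM in iKO-labelled libraries and 3.32 ± 1.83 CPM in controls (-0.15 ± 0.56); its antisense partner Hoxa11os overlaps 35.0% of its exon bases. Hoxa3 (-1.51 ± 1.48), Hoxa6 (0.51 ± 1.25) and Hoxa13 (-1.64 ± 1.54) rested on 59, 51 and 73 counts over the 6 libraries, and each was at 0 in 1 library. Without iKO library 3 the value of Hoxa3 was -4.71, and without iKO library 2 that of Hoxa13 was -4.04; neither passed. The intervals of Hoxa3, Hoxa13 and Hoxa6 were the ones, among the 17 other tested Hox genes, that included a fall as large as that of Hoxa9, so a fall of that size could not be told from none for them. A halving lay within the intervals of 10 of these 17 genes, so a missing call does not show that a gene was unchanged.

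**Figure D4:**
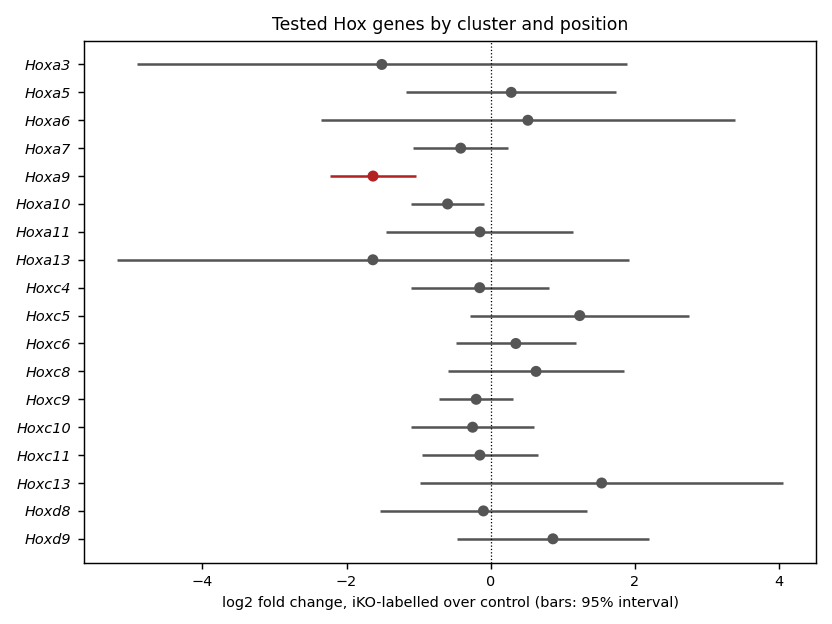
Log2 fold change of the 18 tested Hox genes, iKO-labelled over control, with 95% intervals (bars), in order of cluster and position; the gene called by the test is in red. Hoxa9 is at -1.63 with an interval of -2.23 to -1.04, and intervals are widest for Hoxa3, Hoxa6, Hoxa13 and Hoxc13.

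Of the 8 tested Hoxc genes, edgeR called 0 in either direction, none had an unadjusted p under 0.05, and DESeq2 and limma-voom called 0 as well. Hoxc10 stood at 3.73 ± 1.04 CPM in iKO-labelled libraries and 4.44 ± 0.965 CPM in controls (-0.25 ± 0.37, 95% interval -1.11 to 0.60). Hoxc11 stood at 3.76 ± 1.12 CPM in iKO-labelled libraries and 4.17 ± 0.0638 CPM in controls (-0.15 ± 0.35, 95% interval -0.96 to 0.66). Hoxc6 (0.35 ± 0.36), Hoxc4 (-0.15 ± 0.42) and Hoxc8 (0.63 ± 0.53) did not pass either. Hoxc5 had 51, 106 and 104 counts in iKO libraries 1 to 3, against 12, 27 and 65 in controls 1 to 3, with overlapping groups (1.23 ± 0.66, edgeR adjusted p = 0.246); an annotated Hoxc5 exon shares 166 bases with Hoxc10. Hoxc13 was at 1.54 ± 1.09 with 124 counts in all, and at 3.70 without control 2 (edgeR adjusted p = 0.0643).

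In Hoxd, Hoxd9 had 64, 56 and 49 counts in iKO libraries 1 to 3, against 35, 33 and 14 in controls 1 to 3. Its groups did not overlap, at 2.05 ± 0.175 CPM in iKO-labelled libraries and 1.13 ± 0.530 CPM in controls, yet the test did not call it (log2 fold change 0.86 ± 0.58, edgeR adjusted p = 0.36). Hoxd8 had 87, 42 and 22 counts in iKO libraries 1 to 3, against 63, 44 and 33 in controls 1 to 3 (-0.10 ± 0.63), a gene whose libraries varied more within groups than between them.

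Limb type was read from 3 further factors. Tbx4, the T-box factor of the hindlimb, had 512, 421 and 201 counts in iKO libraries 1 to 3, against 228, 189 and 432 in controls 1 to 3. Its groups overlapped, at 13.5 ± 4.95 CPM in iKO-labelled libraries and 11.4 ± 4.73 CPM in controls (0.25 ± 0.38, edgeR adjusted p = 0.713). Tbx5, its forelimb counterpart, had 1, 0 and 4 counts in iKO libraries 1 to 3, against 3, 0 and 0 in controls 1 to 3. Pitx1, the homeodomain factor that sets hindlimb identity in the embryo and acts upstream of Tbx4, had 0, 1 and 0 counts in iKO libraries 1 to 3, against 9, 0 and 1 in controls 1 to 3. Tbx4 and the posterior Hoxc genes were thus present and Tbx5 close to absent, as the hindlimb label has it, but Pitx1 was close to absent too.

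**Figure D5:**
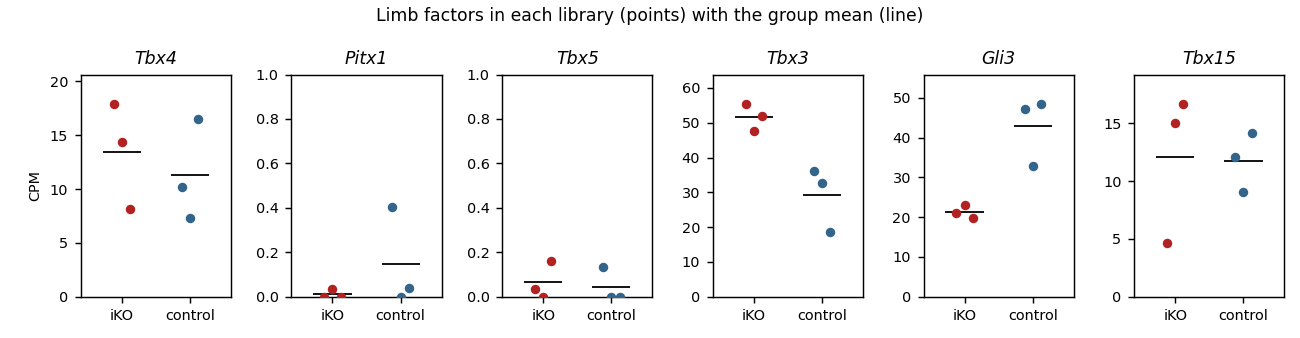
CPM of 6 limb patterning factors in each library (points; iKO-labelled left, control right) with the group mean (line), each on its own linear axis from 0. Tbx4 averages 13.5 CPM in iKO-labelled libraries and 11.4 CPM in controls, whereas Tbx5 and Pitx1 stay below 1 CPM in every library.

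Of 20 genes of limb type and limb axes, 11 were tested, of which 1 rose and 1 fell, with a median log2 fold change of -0.08. Over all tested genes 8.15% were called higher and 12.3% lower, so 1 of 11 either way is near the background. Gli3, the repressor and activator of Hedgehog signalling that limits the posterior limb, fell to 21.2 ± 1.70 CPM in iKO-labelled libraries, against 42.8 ± 8.70 CPM in controls (-1.01 ± 0.18, edgeR adjusted p = 0.0072). Tbx3, a T-box factor of the limb margins, rose to 51.6 ± 4.02 CPM in iKO-labelled libraries, against 29.2 ± 9.39 CPM in controls (0.83 ± 0.24, edgeR adjusted p = 0.0449). The call of Tbx3 ended when any 1 iKO library or control 2 was left out (adjusted p up to 0.125), while that of Gli3 held without each library and ended with limma on log2(FPKM + 1) without a filter (adjusted p = 0.0547).

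Hox proteins bind DNA with TALE homeodomain cofactors of the Pbx, Meis and Pknox families. All 9 were tested; 2 fell, 0 rose, and the median was -0.50, beside 12.3% lower, 8.15% higher and a median of 0.02 over all tested genes. Pknox2 stood at 22.0 ± 3.46 CPM in iKO-labelled libraries and 34.5 ± 5.31 CPM in controls (-0.65 ± 0.18, edgeR adjusted p = 0.0397). Pbx2 had 2, 12 and 4 counts in iKO libraries 1 to 3, against 21, 42 and 76 in controls 1 to 3 (-3.06 ± 0.88, edgeR adjusted p = 0.0442). Leaving out any 1 of the 6 libraries ended both calls, with adjusted p reaching 0.134 for Pknox2 and 0.152 for Pbx2. The more abundant cofactor Pknox1 stood at 91.5 ± 19.1 CPM in iKO-labelled libraries and 131.6 ± 12.2 CPM in controls and missed the threshold (-0.52 ± 0.16, edgeR adjusted p = 0.0517).

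The Hox clusters also make non-coding RNAs. Of 19 listed, 17 were in the table, 5 were tested and edgeR called 0. Hotair, transcribed from the Hoxc cluster opposite to the genes, had 50, 5 and 29 counts in iKO libraries 1 to 3, against 18, 11 and 14 in controls 1 to 3 (0.81 ± 0.90). Hoxa11os (0.28 ± 0.63), Hotairm1 (0.40 ± 0.82) and Hoxd3os1 (0.08 ± 1.07) differed by less than their standard errors, and Hoxaas3 was at 1.06 ± 0.81. The microRNA genes of the clusters, such as Mir10a and Mir196b, were at 0, in libraries made from polyadenylated RNA. Of 10 further homeobox genes linked to the clusters, such as Evx1 and the Cdx genes, 3 were tested and 0 called.

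Of 15 genes of the MLL and trithorax group, which are known to act on Hox clusters, 3 fell, 0 rose, and the median log2 fold change was 0.05. Over all tested genes 12.3% were called lower, beside 3.7% of those in the CPM range of the tested Hox genes. Most genes of this list lie above that range. The share called at their own level was not taken, so 3 of 15 is not read as an excess. Psip1, which tethers menin and MLL to chromatin, fell to 48.7 ± 3.72 CPM in iKO-labelled libraries, against 97.0 ± 8.68 CPM in controls (-0.99 ± 0.12, edgeR adjusted p = 0.00104). Men1, which encodes menin, fell to 50.5 ± 4.43 CPM in iKO-labelled libraries, against 81.5 ± 6.20 CPM in controls (-0.69 ± 0.12). Ash2l, a shared subunit of these complexes, fell to 51.2 ± 8.34 CPM in iKO-labelled libraries, against 87.6 ± 10.6 CPM in controls (-0.78 ± 0.15). These 3 calls held in all 17 alternatives. Wdr5, another shared subunit, was at -0.07 ± 0.08 and Kmt2a, the MLL enzyme itself, at 0.33 ± 0.10 (edgeR adjusted p = 0.0577); neither passed.

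Retinoic acid is a textbook activator of anterior Hox genes. All 18 genes of its list were tested; 4 rose, 2 fell, and the median was 0.49. Over all tested genes 8.15% were called higher and 12.3% lower, and 2 of 18 is near the share of lower calls. The receptor Rarg rose to 42.4 ± 0.978 CPM in iKO-labelled libraries, against 23.7 ± 0.182 CPM in controls (0.84 ± 0.12, edgeR adjusted p = 0.00282), in all alternatives. The receptor partner Rxra (0.87 ± 0.22) and the synthetic enzyme Aldh1a1 (1.30 ± 0.37) rose, and Rxrb (-0.63 ± 0.15) and the retinol oxidase Rdh10 (-0.51 ± 0.14) fell. For each of these 4 genes there were 3 or 4 libraries whose removal ended the call, with adjusted p reaching 0.116. Cyp26c1, which degrades retinoic acid, had 33, 17 and 20 counts in iKO libraries 1 to 3, against 1, 0 and 0 in controls 1 to 3 (edgeR adjusted p = 0.0164). Removal of any of 5 libraries ended its call, with adjusted p reaching 0.0734.

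Among 21 homeobox genes of muscle and mesenchyme, 15 were tested, of which 2 rose and 2 fell, with a median of 0.05. This stands beside 8.15% called higher and 12.3% called lower over all tested genes. Pax7 rose to 49.5 ± 1.70 CPM in iKO-labelled libraries, against 11.3 ± 2.14 CPM in controls (edgeR adjusted p = 0.000222). Tshz1, a zinc finger homeobox factor, fell to 102.2 ± 4.45 CPM in iKO-labelled libraries, against 195.4 ± 11.6 CPM in controls (-0.94 ± 0.09). Prrx1, a limb mesenchyme factor, fell to 1465, 1364 and 1286 counts in iKO libraries 1 to 3, against 1881, 2267 and 1997 in controls 1 to 3 (-0.73 ± 0.11, edgeR adjusted p = 0.00336). Zfhx4 rose (0.72 ± 0.18), a call that removal of any of 4 libraries ended, with adjusted p reaching 0.107.

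Cell type markers were read beside Hoxa9, since other cells of the hindlimb express Hox genes too. The 10 satellite cell markers summed to 12194 to 12768 CPM in iKO-labelled libraries and 9661 to 10155 CPM in controls, with 6 higher and 3 lower. Over all tested genes 8.15% were called higher and 12.3% lower. The largest part of the sum was Sdc4, at 6087 ± 214 CPM in iKO-labelled libraries and 3911 ± 251 CPM in controls. Myf5, Itga7 and Des were the 3 called lower, so the sum does not measure the amount of satellite cell RNA. The 10 markers of fibro-adipogenic progenitors, the connective tissue cells of muscle, summed to 1099 to 1332 CPM in iKO-labelled libraries and 1202 to 1259 CPM in controls, and 0 of 9 tested were called. The 6 smooth muscle and pericyte markers summed to 186 to 294 CPM in iKO-labelled libraries and 315 to 417.5 CPM in controls, with 1 of 6 called, Acta2 (-2.24 ± 0.22). The 6 myofibre markers summed to 11.5 to 16.8 CPM in iKO-labelled libraries and 14.9 to 62.8 CPM in controls, with 1 of 5 tested called, Acta1. Sums of tenocyte, endothelial, macrophage, neutrophil, lymphocyte and Schwann cell markers overlapped between groups with 0 called, and Nkg7 of lymphocytes was the marker at 0 throughout. The part of any of these cells in the Hox levels, or in the lower Hoxa9 level, was not tested.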

How the data were processed

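RNA of sorted satellite cells was reverse-transcribed and amplified by Smart-Seq2, per the labels' protocols. The method primes on poly(A) and keeps no strand information. The authors deposited raw read counts per gene and FPKM (fragments scaled to exon length and library size) for 6 libraries. Tools named in the submitters' processing notes are DESeq2, featureCounts, STAR, Subread and Trim Galore, and the build is mm10. The sources used here give no versions, annotation, strand setting or treatment of multiply mapped reads. The deposited FPKM were scaled between libraries by median-of-ratios size factors, which they matched to a relative deviation of 9.33e-15 over 11966 genes. Rows without a gene name, 551 of 46078, held 0.108% to 0.123% of the counts and were left out.

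Counts were tested in R 4.3.3 with edgeR 4.0.16: filterByExpr (minimum count 10, minimum total 15), TMM factors, a quasi-likelihood fit with the group as the only term to all 6 libraries, and Benjamini-Hochberg adjustment over all 16252 tested genes, with calls at an adjusted p under 0.05. The SE is the size of the log2 fold change over the square root of F, and 95% intervals use the t distribution of the fit. The fit was tested on simulated data. CPM are counts scaled to the TMM-adjusted library size. FPKM serve for levels between genes. Intervals cover counting error and the spread between these libraries, and floors cover counting error alone. Alternatives were DESeq2 1.42.0, limma 3.58.1 (voom, and log2 FPKM with a pseudocount of 1 or 0.1), other scaling factors, other filters, the replicate number as a block, and each library left out. Gene positions and exon overlaps came from GENCODE M21 (GRCm38), and promoters from RefSeq (GRCm38.p6). Other tools were Python 3.11.15, numpy 2.4.6, pandas 2.3.3, scipy 1.17.1 and matplotlib 3.10.9.

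All Hox genes that passed the filter are named; some items of the lists are not reported here. Of each further list, called genes are named, at most 6 by p, with Pitx1, Tbx4 and Tbx5 whatever their value. The Hox members and the lists were chosen with earlier results of these data known.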

Additional observations from a re-analysis of the deposited data

How the results depend on the processing

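The fall of Hoxa9 kept its direction and its call in all 17 alternatives. The other 17 tested Hox genes were called in 0 of 261 combinations of gene and setting (lowest adjusted p 0.0643), and 10 of these turned the sign. Without a count filter 2 Hox genes were called lower, the added one being Hoxa2 (adjusted p = 0.03), which rests on 41 counts in control 2. At 2 FPKM in all 6 libraries 2 Hox genes count as expressed, and at 0.5 FPKM 9 do. DESeq2 called 2081 genes of the whole table higher, the replicate block 813, and 706 to 1159 were called higher with 1 library left out. With library totals as the scaling, 1921 genes were higher and 1440 lower, and Hoxd8 turned to 0.0231. With 1 library left out, log2 fold changes ran from -0.73 to 0.27 for Hoxd8, -0.65 to 0.36 for Hoxa11, -0.13 to 0.57 for Hoxa5, -0.0574 to 2.28 for Hoxa6, -0.39 to 0.0408 for Hoxc11, -0.39 to 0.0422 for Hoxc4 and -0.0138 to 0.64 for Tbx4. Without a change of sign they ran from -4.71 to -0.93 for Hoxa3, -4.04 to -1.12 for Hoxa13 and 1.01 to 3.70 for Hoxc13. The cause of these changes was not tested. Same-numbered libraries did not deviate together (correlations -0.0668, -0.00212 and -0.0593). No strong effect shared by number was seen, but this cannot tell whether the numbers pair the samples, so pairing stays unknown. With the number as a replicate block Hoxa9 was at -1.67 (edgeR adjusted p = 0.0145). Pitx1 and Tbx5 have no fitted value, since they failed the filter. The standard errors of the tested Hox genes ran from 0.22 to 1.54 on the log2 scale.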
